A study of Saccharomyces cerevisiae with 10 samples.

Results

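WY7 is a MED15 allele from a wine yeast that was integrated into S288C, the laboratory reference strain of Saccharomyces cerevisiae, and it was compared here with the LAB allele in the same background. The comparison takes the 2 WY7 libraries and the 2 LAB libraries, 4 of the 10 libraries of the series, with every gene whose mean over the 10 libraries was at least 10 normalized counts. The labels give the genotypes as WY7 MED15 and as WT, and the design text describes both as integrants. The other strains carry the WY15 or WY23 allele or a med15 deletion, with 2 libraries each. Every strain was fermented in supplemented white grape juice, 5 mL per culture, and RNA from whole cells was taken at a weight loss of 35%, at about 37 h for the strains with a MED15 allele and 48 h for the deletion. The 2 libraries of a strain came from separate fermentations. Whether a strain is 1 clone or several is not given in the sources used here. The amino acid sequence of the WY7 allele was not used here.

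Mediator is the large complex that carries signals from DNA-bound activators to RNA polymerase II. Med15 sits in its tail module and offers several activator-binding surfaces, which factors such as Gcn4, the activator of amino acid synthesis, and Pdr1, the activator of drug efflux genes, are known to contact. Between and within these surfaces lie long glutamine repeats, a kind of sequence that varies in length between yeast strains. MED15 is the locus YOL051W, listed in RefSeq under its older name GAL11, on chromosome XV at 234940 to 238185 of the R64 build, on the plus strand. The reference reading frame has 1081 codons, of which 173 (16%) code for glutamine, and holds 4 runs of at least 5 glutamine codons in a row.

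The longest runs of the reference gene are shown because this is the feature by which MED15 alleles are known to differ. Capitals mark the glutamine codons and lower case the 15 bases on each side, read 5′ to 3′ on the plus strand of the RefSeq R64 sequence. The upper one lies at chrXV:236944-237042 and covers codons 674 to 696, and the lower one lies at chrXV:235363-235428 and covers codons 147 to 158.
MED15 run of 23 codons: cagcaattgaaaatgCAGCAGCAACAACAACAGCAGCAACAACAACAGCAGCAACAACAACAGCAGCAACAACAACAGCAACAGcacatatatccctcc
MED15 run of 12 codons: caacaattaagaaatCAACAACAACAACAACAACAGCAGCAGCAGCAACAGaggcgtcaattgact
The longer run mixes 13 CAA with 10 CAG codons and the shorter one 7 CAA with 5 CAG. Reads were counted per gene, so the repeats of the WY7 allele are not visible in these values.

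In normalized counts, MED15 itself was read at 8238 and 8844 in LAB and at 9497 and 8837 in WY7. WY7 replicate 2 lay within the range of the LAB libraries, so the groups overlapped. The log2 difference, WY7 minus LAB, was 0.10 (SE 0.08) with a 95% interval from -0.08 to 0.29, and it turned to -0.02 when libraries were scaled to equal sums. The deletion libraries, as a check of the labels, held 12.1 and 11.9 normalized counts.

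A normalized count is the number of reads of a gene divided by 1 size factor per library. The 4 libraries held 22.7 to 29.1 M reads assigned to genes. Both WY7 libraries, at 22.7 and 23.1 M reads, were shallower than both LAB libraries, at 28.5 and 29.1 M. After the authors' scaling the order was the opposite, with sums of 28.5 and 29.5 M normalized counts in WY7 and 26.0 and 27.4 M in LAB. Scaling every library to the same sum moved the median log2 difference over all genes from 0.007 to -0.11, whereas quantile normalization left it at -0.002. The part of depth in the results was not tested.

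No gene passed the test between WY7 and LAB. In a limma fit on log2(normalized count + 1) over all 10 libraries, 0 of 6065 genes (0%) had a Benjamini-Hochberg adjusted p under 0.05, and the lowest adjusted p was 0.983. At an unadjusted p under 0.05 there were 285 genes (4.7%), 126 of them higher (2.08%) and 159 lower (2.62%) in WY7, where 303.25 would be counted if no gene differed. edgeR's quasi-likelihood test on the recovered reads also called 0 genes, with a lowest adjusted p of 0.998. DESeq2 on the same reads called 17 genes (0.28% of all 6065), 16 higher and 1 lower in WY7. DESeq2 gave an adjusted p to 2185 genes only. Its filter on low counts set aside the other 3880, among them CDC20 with 1818 to 2723 reads in these libraries. The genes kept were thus the more abundant ones. Above 10000 normalized counts, 39.8% of genes were higher in both WY7 libraries and 0.598% lower. The part of this filter in the split of 16 to 1 was not tested. Without that filter DESeq2 called 8 genes, 6 higher and 2 lower. The median 95% interval, not adjusted for the number of genes, reached 0.306 log2 units to either side of the estimate. For a typical gene a smaller difference thus had an interval that included 0. Differences well above this also failed the adjusted test with 2 libraries a strain, among them -0.73 for the cohesin gene IRR1, with a limma adjusted p of 0.98. A gene tested alone by exact permutation could not go below a two-sided p of 0.333 with 2 libraries against 2.

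Differences between the strains were of the same size as those within them. The median absolute log2 difference was 0.18 between the LAB libraries and 0.12 between the WY7 libraries. The 4 pairs of a LAB and a WY7 library gave 0.13, 0.15, 0.12 and 0.18. LAB replicate 1 and LAB replicate 2 were at least 2-fold apart at 157 genes and the WY7 libraries at 109, against 41 to 149 genes for the pairs across strains. LAB replicate 2 and WY7 replicate 1 were the closest of these 6 pairs, with 41 genes. Over all genes the fitted difference ran from -0.32 at the 5th percentile to 0.31 at the 95th, and the medians of the 16 chromosomes lay between -0.019 and 0.025.

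**Figure D1:**
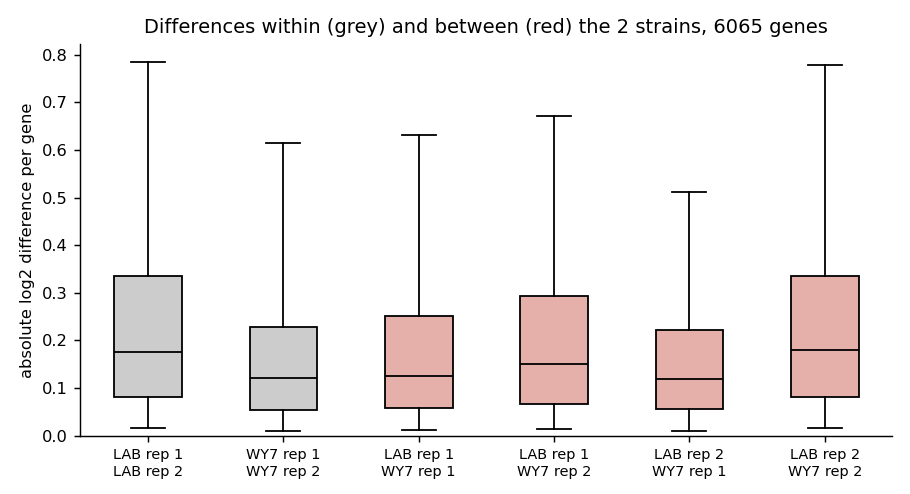
Absolute log2 difference per gene, on the log2(normalized count + 1) scale, for each pair among the LAB and WY7 libraries. Boxes span the quartiles, lines mark medians and whiskers reach the 5th and 95th percentiles over 6065 genes; the median of the LAB pair, 0.18, is as high as that of the widest pair across strains.

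The differences leaned with expression level. Among the 502 genes with a mean above 10000 normalized counts, 200 (39.8%) were above LAB in both WY7 libraries and 3 (0.598%) were below, with a median log2 difference of 0.17. Among the 988 genes between 100 and 1000, the counts were 104 (10.5%) above and 272 (27.5%) below, with a median of -0.08. Genes from 1000 to 10000 were close to even, with 567 above and 586 below. Over all 6065 genes, 948 (15.6%) were higher in both WY7 libraries than in both LAB libraries and 934 (15.4%) were lower. With equal library sums these shares were 4.11% higher and 36.7% lower, and with quantile normalization 12.9% and 14.7%. The shares over all genes, and the share at the same level, are the background for the gene groups described here.

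**Figure D2:**
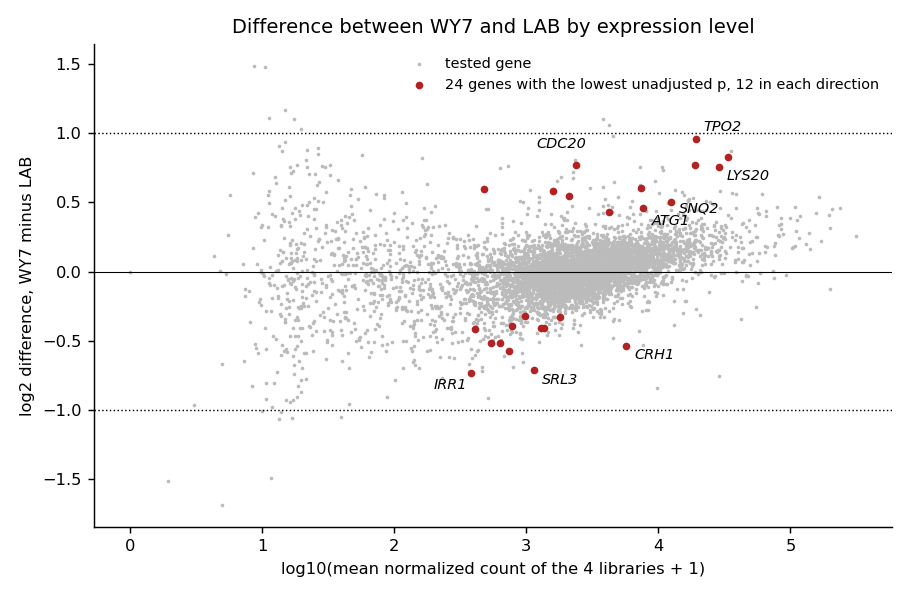
Log2 difference, WY7 minus LAB, against the mean normalized count of the 4 libraries on a log10 scale, 1 point per gene. Red points are the 24 genes with the lowest unadjusted p, and dotted lines mark 2-fold differences; abundant genes lie mostly above 0, and most points beyond 2-fold have few counts.

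The 24 named genes are those of lowest unadjusted p, 12 in each direction, among genes that carry a standard name, average 50 or more normalized counts and do not overlap between the strains. In normalized counts, ATG1, the kinase that starts autophagy (chrVII:160065-162758, plus strand), stood at 6622 and 6336 in LAB and at 8794 and 8997 in WY7. SNQ2, a multidrug efflux pump of the ABC family (chrIV:465919-470424, plus strand), was at 9903 and 10629 in LAB and at 15039 and 14102 in WY7. In both genes the replicates lay close together and the strains were apart, by a log2 difference of 0.46 (SE 0.08) for ATG1 and 0.51 (SE 0.09) for SNQ2. These were also the lowest adjusted p values of DESeq2, 8e-06 for each, whereas the limma adjusted p was 0.98. LYS20, homocitrate synthase at the entry to lysine synthesis, was at 23563 and 19016 in LAB and at 31423 and 40442 in WY7, a log2 difference of 0.75 (SE 0.16) with a DESeq2 adjusted p of 0.0045.

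Other genes ranked higher in WY7 ranged from membrane transporters to regulators of the cell cycle. TPO2, a plasma membrane polyamine exporter, was at 10279 and 15976 in LAB and at 21200 and 29100 in WY7, a log2 difference of 0.95 (SE 0.25). Its close relative TPO3 was at 11638 and 16344 against 20355 and 27148, and since the pair share near-identical stretches, reads could be assigned to either. STP4, a zinc-finger protein, was at 21039 and 27130 against 35551 and 50457, and LAC1, a subunit of ceramide synthase, was at 3300 and 3850 against 4483 and 5123. For TPO2, TPO3 and STP4 the replicates of a strain were spread over a wide range, and the lowest WY7 value lay well above the highest LAB value. DESeq2 called all 4, with adjusted p between 0.035 and 0.047. CDC20, the activator of the anaphase-promoting complex, was at 1662 and 1814 in LAB and 2530 and 3474 in WY7. TOS3, a kinase that acts on Snf1, had a log2 difference of 0.60 (SE 0.16), and SNG1, a membrane protein known for drug resistance, one of 0.54 (SE 0.15). SPS22, MND1, CDC20 and SNG1 had no adjusted p from DESeq2. SPS22 and MND1, both named for roles in sporulation and meiosis, were at 353 and 401 against 607 and 533 and at 1086 and 1474 against 1771 and 2020. The list of meiosis and sporulation genes as a whole had 1 of 24 members higher and 5 lower, with a median of -0.14 that was -0.26 with equal sums and -0.04 with quantile normalization and turned to 0.08 without WY7 replicate 2. Its lower members included ZIP1 at 555 and 545 against 392 and 393, RED1 at 524 and 547 against 440 and 450 and SPR3 at 195 and 228 against 168 and 156. Its most abundant members SPS100 and IME1 overlapped, at log2 differences of 0.31 and -0.09.

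The 12 genes ranked lower in WY7 were of modest abundance, and several serve chromosome replication and cohesion. IRR1, a cohesin subunit, had the lowest unadjusted p of the fit (0.00027), being read at 515 and 433 in LAB and at 297 and 273 in WY7, a log2 difference of -0.73 (SE 0.12). SMC1, another cohesin subunit, was at 874 and 885 against 696 and 501, and SMC5, of the related Smc5/6 complex, was at 1574 and 1521 against 1218 and 1115. Both WY7 libraries were below both LAB libraries in each of these. DNA2 and RAD27, nucleases that process Okazaki fragments, had log2 differences of -0.41 (SE 0.09) and -0.32 (SE 0.08). MRC1, which relays replication stress, was at -0.52 (SE 0.13), MMS4, a subunit of the Mus81 nuclease, at -0.42 (SE 0.11), and SLK19, a kinetochore protein, at -0.40 (SE 0.09). SRL3, a cell cycle regulator, was at 1737 and 1144 in LAB and 851 and 870 in WY7. KAP114, a nuclear import receptor, and MRX1, a mitochondrial protein, were at -0.51 (SE 0.13) and -0.33 (SE 0.08).

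CRH1, a transglycosylase that links chitin to glucan in the cell wall (chrVII:876669-878192, minus strand), was the 1 gene that DESeq2 called lower. The other genes ranked lower had no adjusted p from DESeq2, because its filter on low counts set them aside. Without that filter, a setting chosen after seeing the data, IRR1 and CRH1 were the 2 genes called lower. Their DESeq2 adjusted p was then 0.0043 and 0.031. CRH1 stood at 7553 and 5930 in LAB and at 4605 and 4634 in WY7, a log2 difference of -0.53 (SE 0.12) with a DESeq2 adjusted p of 0.016 with the filter. Both WY7 libraries were also below the WY15 and WY23 libraries, which ran from 6923 to 7290.

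**Figure D3:**
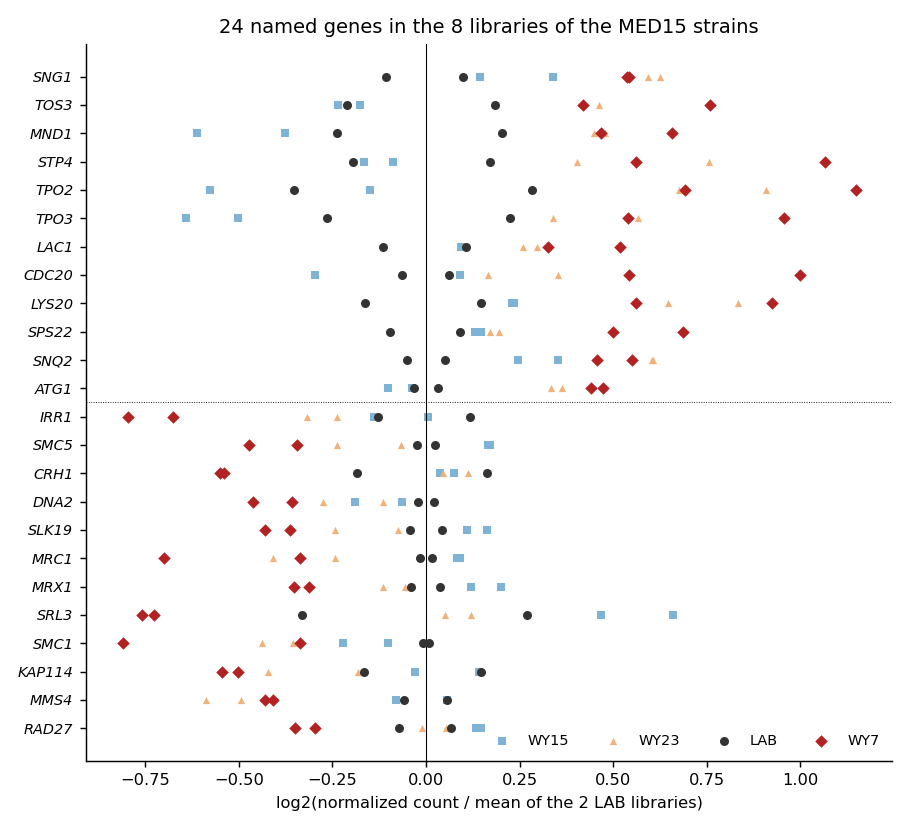
Log2 ratio of each library's normalized count to the mean of the 2 LAB libraries, for the 12 genes ranked higher (above the dotted line) and the 12 ranked lower in WY7. Circles are LAB, diamonds WY7, squares WY15 and triangles WY23; both WY7 diamonds lie on 1 side of both LAB circles for every gene by the rule that chose them, and WY23 lies near WY7 for SNQ2 and LYS20.

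The remaining genes called by DESeq2 were all higher in WY7. PCL5, a cyclin that directs the turnover of Gcn4, was at 48312 and 48903 in LAB and at 62403 and 68109 in WY7 (DESeq2 adjusted p 0.012). ICY1 was at 49657 and 49039 against 66801 and 78920 (0.031). ILV2, acetolactate synthase of the branched-chain pathway, was at 73215 and 72529 against 90270 and 100294 (0.035). LAB replicates were nearly equal in these 3 genes, and every WY7 value was above them. ALD5, a mitochondrial aldehyde dehydrogenase, was at 33739 and 29066 against 40482 and 52584 (0.049), and MPC2, of the mitochondrial pyruvate carrier, was at 23224 and 22926 against 28565 and 29817 (0.041). TDA6 was at 2551 and 2696 against 3715 and 8001, with a log2 difference of 1.06 (SE 0.31), and WY7 replicate 2 was far above the other 3 values. YCL048W-A, YLL056C and YDR524C-B had log2 differences of 0.57, 0.46 and 0.47.

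Binding motifs in the promoters of these 17 genes were counted from 250 bases before to 50 after the start, on both strands. The Gcn4 motif TGACTC was in 2 of 17 (11.8%), STP4 and ALD5, beside 8.27% of all 5706 promoters. The Rox1 motif ATTGTT was in 10 (58.8% beside 34.4%) and the GATA motif GATAAG in 5 (29.4% beside 14.7%). The CCAAT motif of the Hap complex was in 3 (17.6% beside 43.8%). The Pdr1 and Pdr3 motif TCCGCGG was in 1, YLL056C (5.88% beside 0.754%). The 17 genes could come only from the 2185 more abundant genes that DESeq2's filter kept, whereas the 5706 promoters cover tested genes of every level. The shares are therefore not of like sets, and no test was made of them.

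By size alone, 13 genes (0.214%) were at least 2-fold apart without overlap, 7 higher and 6 lower in WY7. Among them TDA6 and CIP1 were well expressed, CIP1 at 1885 and 2815 in LAB and at 3400 and 7189 in WY7. HXT10, a hexose transporter gene read at low levels, was at 40.2 and 64.1 in LAB and at 30.2 and 19.1 in WY7. The other 10 reached at most 31.9 normalized counts in any of the 4 libraries, where a few reads set the ratio. Whatever the overlap, 16 genes (0.264%) were 2-fold apart.

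The Mediator genes differed little. Of 5 tail genes, MED3 was higher in both WY7 libraries (3415 and 3331 against 3778 and 3818) and MED16 lower (2123 and 2116 against 1978 and 2043), while MED2 was at 7621 and 8935 against 9350 and 6568. In the head and middle, 2 of 16 genes were higher and 2 lower, with log2 differences of 0.18 for MED10, 0.12 for MED20 and -0.25 for MED21, and MED19 and MED14 at 0.02 and -0.00. In the kinase module, a part that can block polymerase binding, 3 of 4 genes were lower and 1 was higher. Of all genes 15.4% were lower and 15.6% higher, and 36.7% were lower with equal library sums. With so few genes the counts describe single genes and not the module. MED12 was at 1326 and 1475 in LAB and at 1178 and 1074 in WY7, the kinase gene SSN3 at 1959 and 2166 against 1859 and 1910, and MED13 at 1724 and 1538 against 1491 and 1419. The cyclin gene SSN8 was at 1465 and 1244 against 1477 and 1476.

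Among 15 activators known to use Med15, 2 were higher and 1 was lower. GCN4 was at 34542 and 41254 in LAB and at 39369 and 44192 in WY7, with overlap, and MSN4, a stress activator, was at 25693 and 33876 against 34506 and 24770. LEU3, the activator of leucine synthesis, was at 3890 and 3738 against 4167 and 4493. SWI4, a G1 activator, was at 1013 and 1040 against 885 and 635. PUT3, the proline activator, was at 4036 and 4273 against 4392 and 4390. The widest of these differences was -0.45 (SE 0.16), for SWI4.

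Enzymes of branched-chain amino acid synthesis lay mostly above LAB, though none passed the limma test. Both WY7 libraries were above both LAB libraries for 9 of 12 members and for none were they below, and the median log2 difference was 0.26, falling to 0.14 with equal library sums and to 0.05 with quantile normalization. Most of these genes are abundant: of the 9 members above 10000 normalized counts 7 were higher, beside 39.8% of all genes at that level. Under quantile normalization 2 members were higher and 1 was lower. Leaving out 1 library at a time put the median between 0.14 (without WY7 replicate 2) and 0.32 (without WY7 replicate 1). LEU1, isopropylmalate isomerase, was at 197546 and 157720 in LAB and at 202291 and 238306 in WY7. BAT1, the mitochondrial transaminase, was at 81980 and 68272 against 83092 and 108116, so that its lowest WY7 value was barely above its highest LAB value. ILV3, dihydroxyacid dehydratase, was at 103103 and 107394 against 119581 and 130078, and LEU4, isopropylmalate synthase, at 105416 and 93881 against 119772 and 123409. For 6 of the 12 genes both LAB libraries were below all 6 libraries of the wine alleles, against 3.02% of all genes, a share not matched by level.

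Other amino acid pathways had smaller shares of members free of overlap. In lysine synthesis 3 of 8 members were higher and none lower, beside 15.6% and 15.4% of all genes. Of the 4 members above 10000 normalized counts 2 were higher, beside 39.8% of all genes at that level. The median was 0.14, or 0.02 with equal library sums and 0.03 with quantile normalization. It was 0.27 without LAB replicate 1 and 0.05 without LAB replicate 2. LYS20 was far ahead of LYS21 (0.18), LYS4 (0.14) and LYS1 (0.13, overlapping) in log2 difference. In arginine synthesis 5 of 12 were higher and 1 lower, with a median of 0.20, or 0.08 with equal library sums and 0.03 with quantile normalization. All 5 higher members lay among the 6 above 10000 normalized counts, where 39.8% of all genes were higher. With equal sums 0 members were higher and 2 lower, and with quantile normalization 1 and 1. The arginine median was 0.39 without LAB replicate 1 and 0.01 without LAB replicate 2. CPA1, a subunit of carbamoyl phosphate synthetase, was at 60576 and 50036 against 65938 and 84438. ARG4, argininosuccinate lyase, was at 67012 and 46382 against 68014 and 79577, and ARG1 at 43120 and 33467 against 45870 and 50500. The lowest WY7 value of ARG4 was barely above its highest LAB value. In aromatic synthesis 5 of 12 were higher and 1 lower, with a median of 0.19 (0.07 with equal sums, 0.05 with quantile normalization, 0.12 without WY7 replicate 2). Of the 6 members above 10000 normalized counts 4 were higher, beside 39.8% of all genes at that level. ARO3 was at 44712 and 40000 against 49876 and 59928, TRP5 at 29655 and 28127 against 32654 and 37600, and TRP4 had a log2 difference of 0.25. In histidine synthesis 1 of 7 genes, HIS3, was free of overlap (10612 and 9158 against 11675 and 14572). The median of the 7 was 0.18 with all libraries, 0.47 without LAB replicate 1 and -0.03 without LAB replicate 2, and LAB replicate 2 differed from LAB replicate 1 by a median of -0.49. HIS4 was at 59967 and 40778 against 52014 and 66236, and HIS5 had a difference of 0.18 with overlap. For WY23 the median difference from LAB was 0.29 in lysine, 0.46 in arginine, 0.28 in aromatic and 0.51 in histidine synthesis. For WY15 these medians were 0.06, 0.16, 0.10 and 0.11, and both sets share the LAB libraries.

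Sulfate assimilation and methionine genes had 8 of 27 members higher and none lower, with a median of 0.15 that was 0.03 with equal sums and turned to -0.01 with quantile normalization. It was 0.07 without WY7 replicate 2 and 0.23 without WY7 replicate 1. Of the 13 members above 10000 normalized counts 6 were higher, beside 39.8% of all genes at that level, and of the other 14 members 2 were higher. STR3, a cystathionine lyase, was at 9314 and 6386 in LAB and at 10799 and 15751 in WY7, a log2 difference of 0.76 (SE 0.23). MUP3, a methionine permease, was at 2528 and 2489 against 3156 and 3749, and SUL2, a sulfate permease, at 18908 and 17343 against 21962 and 25556. In both permease genes each WY7 library was above all 6 libraries of the other MED15 strains. MET17 was at 47285 and 48334 against 53805 and 67521, in a locus that overlaps another gene. MET6, methionine synthase, was at 56256 and 52776 against 53341 and 62038, and MET3, ATP sulfurylase, at 4648 and 5455 against 4682 and 5111, both with overlap.

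Purine synthesis had 5 of 16 members lower and none higher, and a median of -0.07. The median was -0.18 with equal library sums, where that of all genes was -0.11, and -0.13 with quantile normalization. Under each scaling 8 members (50%) were lower, beside 36.7% of all genes with equal sums and 14.7% with quantile normalization. With 1 library left out the median ran from -0.14 (without WY7 replicate 2) to -0.04 (without LAB replicate 1). IMD2, an IMP dehydrogenase, was at 479 and 674 in LAB and at 367 and 324 in WY7. ADE17 was at 4482 and 4178 against 3665 and 3237 and ADE1 at 3618 and 3053 against 2779 and 2808. The abundant members ADE3 and ADE16 overlapped, with log2 differences of 0.16 and 0.10.

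Amino acid permeases were split, with 3 of 21 higher and 4 lower. GNP1 and DIP5, permeases for glutamine and for acidic amino acids, were lower: GNP1 was at 547 and 798 in LAB and 392 and 314 in WY7, and DIP5 at 11473 and 13577 against 8113 and 6006. BAP3, a branched-chain permease, was at 4399 and 6958 against 6963 and 10475, its lowest WY7 value only just above LAB replicate 2. AGP1 was at 68804 and 53404 against 58688 and 75993, and GAP1, the general permease, at 66323 and 52288 against 54331 and 44622. Both of these overlapped. Of 31 genes under nitrogen catabolite repression, 4 were higher and 1 lower, with a median of 0.01 that turned to -0.10 with equal sums and -0.05 with quantile normalization. MEP2, an ammonium permease, was at 128557 and 120296 against 147695 and 153434, DAL3 at 8897 and 6426 against 9176 and 9222, and GLT1, glutamate synthase, at 17774 and 22270 against 24460 and 22751. GLN1 and GDH1, which assimilate ammonium, were at -0.04 and -0.01.

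Glycolytic enzymes had 7 of 17 members higher and none lower, with a median log2 difference of 0.17 that was 0.06 with equal library sums and turned to -0.02 with quantile normalization. All 7 lay among the 15 members above 10000 normalized counts, close to the share of all genes at that level. With equal sums 2 were higher and none lower, and with quantile normalization 1 and 2. The median was 0.08 without WY7 replicate 2 and 0.28 without LAB replicate 2. GLK1, glucokinase, was at 25832 and 21435 in LAB and at 34162 and 36354 in WY7, in a locus that overlaps another gene. FBA1, aldolase, was at 272821 and 299833 against 316890 and 367472, and PGI1 at 38621 and 39695 against 41340 and 49669. TDH1 was at 104979 and 162027 against 150965 and 203033, with overlap.

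Hexose transporters had 2 of 16 genes higher and 2 lower. HXT3, a low-affinity glucose transporter and the most abundant of them, was at 184951 and 215017 in LAB and at 251673 and 299033 in WY7, a log2 difference of 0.46 (SE 0.21). HXT1 was at 75767 and 70068 against 81418 and 93879. The lower genes were HXT10 and HXT11, both of few reads, and HXT11 shares near-identical sequence with another gene.

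Of 18 genes for ethanol and acetate metabolism, 3 were higher and none lower: ALD5, ADH5 and PDC1. PDC1, the main pyruvate decarboxylase, was at 41043 and 46724 in LAB and at 50808 and 56518 in WY7, and ADH5 at 11493 and 9492 against 13206 and 15273. ADH1, the main alcohol dehydrogenase of fermentation, was at 80895 and 122128 against 107319 and 119455, so that both WY7 values lay between the LAB values. ADH2, which oxidises ethanol, was at 498 and 1213 against 1109 and 495, and ALD6, a cytosolic acetaldehyde dehydrogenase, at 30084 and 60128 against 59839 and 18838. In both of these genes the replicates of a strain were far apart and the strains overlapped.

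Of 16 fusel alcohol and ester genes 5 were higher and none lower, beside 15.6% and 15.4% of all genes; with equal library sums 1 was higher and 2 were lower, and with quantile normalization 3 and 2. Among the 5 were ARO8 (33382 and 32136 against 38389 and 39655), BDH1 (6977 and 6234 against 7475 and 8643) and ADI1 (4401 and 6817 against 7005 and 7593). The list reaches beyond enzymes that form fusel alcohols or esters, as with BDH1, a butanediol dehydrogenase, and ADI1. ATF1, which makes acetate esters, was at 3092 and 3364 against 3159 and 2941. Of 11 glycerol genes 4 were higher and none lower, all 4 among the 7 above 10000 normalized counts, and with either other scaling 0 were free of overlap. GPP1, a glycerol phosphatase, was at 37342 and 38421 against 40073 and 50412, and GPP2 at 19671 and 17553 against 20027 and 35045, the last value being that of WY7 replicate 2. GCY1 had a log2 difference of 0.23, and GPD1, the first enzyme of glycerol synthesis, was at 42180 and 32236 against 41767 and 36446.

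Of 19 general stress genes 10 were higher in both WY7 libraries and none lower, and the median log2 difference was 0.24, with 0.12 for equal library sums and 0.08 for quantile normalization. None passed the limma test. With equal library sums 36.8% were higher, beside 4.11% of all genes, and with quantile normalization 26.3%, beside 12.9% of all genes. Under these scalings shares at the same level were not counted, and most members of this list are abundant. Leaving out LAB replicate 2 brought the median to 0.14 and leaving out LAB replicate 1 to 0.34. Of the 12 members above 10000 normalized counts 8 were higher, beside 39.8% of all genes at that level. YGP1, a secreted glycoprotein, was at 156828 and 190030 in LAB and at 217725 and 257291 in WY7. HSP30, a plasma membrane stress protein, was at 22514 and 27241 against 37464 and 54495, a log2 difference of 0.87 (SE 0.31). HSP26, a small heat shock protein, was at 91942 and 89589 against 110714 and 141650. For 7 of the 19 genes both WY7 libraries were above all 6 libraries of the other MED15 strains, where 4.22% of all genes were, a share not matched by level. The median difference from LAB was -0.09 for WY15 and -0.10 for WY23, in comparisons that share the LAB libraries.

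Heat shock chaperones had 11 of 22 members higher and none lower, with a median of 0.33, or 0.21 with equal library sums and 0.19 with quantile normalization. With equal library sums 18.2% were higher, beside 4.11% of all genes, and with quantile normalization 13.6%, beside 12.9% of all genes. These shares of all genes were not matched by level. Of the 14 members above 10000 normalized counts 7 were higher, beside 39.8% of all genes at that level, and of the other 8 members 4 were higher. HSP82, the inducible Hsp90, was at 16945 and 13009 in LAB and at 18827 and 24368 in WY7. HSP42 was at 18327 and 10163 against 18445 and 20907 and SSE2 at 24915 and 18304 against 26718 and 33585. HSP104, the disaggregase, was at 28781 and 20760 against 30138 and 37457, and SSE1 at 24569 and 32362 against 32815 and 38681. In each of these the lowest WY7 value exceeded the highest LAB value by less than the LAB libraries differed. The list's median difference between LAB replicate 2 and LAB replicate 1 was -0.35, as large as that between the strains. Without LAB replicate 1 the median was 0.49 and without LAB replicate 2 it was 0.17. The median difference from LAB was 0.14 for WY15 and 0.32 for WY23, in comparisons that share the LAB libraries, so WY23 stood as far from LAB as WY7 did. For 1 of the 22 genes both WY7 libraries were above all 6 libraries of the other MED15 strains.

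**Figure D4:**
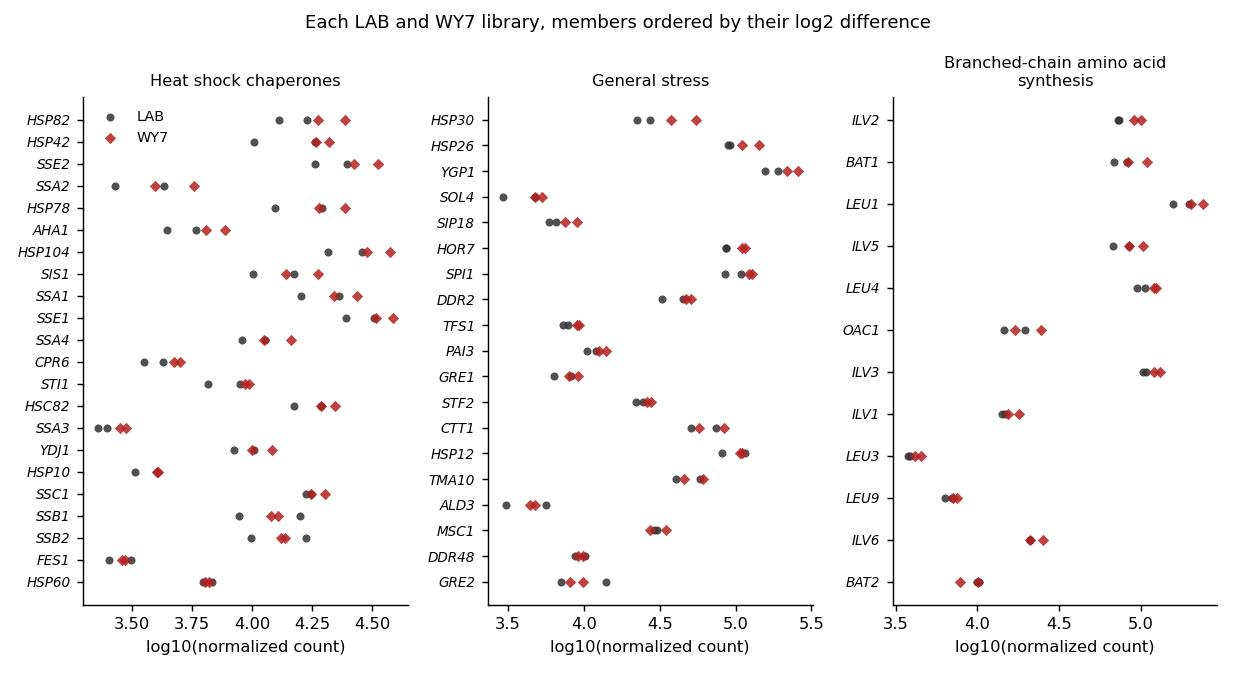
Log10 normalized count of each LAB library (circles) and each WY7 library (diamonds) for the tested members of 3 lists, ordered by log2 difference. WY7 lies above LAB without overlap in 11 of 22 heat shock chaperones, 10 of 19 general stress genes and 9 of 12 branched-chain genes; with quantile normalization these are 3, 5 and 2.

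Reserve carbohydrate genes had 7 of 17 members higher and none lower, beside 15.6% and 15.4% of all genes. Of the 9 members above 10000 normalized counts 3 were higher, beside 39.8% of all genes at that level, and of the other 8 members 4 were higher. The median was 0.16, or 0.04 with equal library sums and 0.08 with quantile normalization, each with 3 members higher. Without WY7 replicate 2 the median was 0.33. TSL1 and TPS1, of trehalose synthesis, were at 12036 and 11994 against 16371 and 15760 and at 20790 and 16986 against 23891 and 23680. NTH1, neutral trehalase, was at 20847 and 17036 against 21714 and 25229, and GSY2, glycogen synthase, overlapped at a difference of 0.16. Oxidative stress genes had 8 of 23 higher and 2 lower. Of the 9 members above 10000 normalized counts 4 were higher, close to the share of all genes at that level, and of the other 14 members 4 were higher and 2 lower. With either other scaling 2 members (8.7%) were higher and 3 (13%) lower. The shares of all genes were then 4.11% and 36.7% with equal sums and 12.9% and 14.7% with quantile normalization, not matched by level. SOD1 was at 34244 and 35659 against 43144 and 38977, with AHP1 at 0.29, GPX1 at 0.34 and the catalase gene CTT1 at 0.18 with overlap. Of 35 nuclear genes for the respiratory chain, 14 were higher and 2 lower, with a median of 0.09 that turned to -0.03 with equal sums. Of the 9 members above 10000 normalized counts 7 were higher, beside 39.8% of all genes at that level, and of the other 26 members 7 were higher. With equal sums 1 was higher and 6 lower, and with quantile normalization 1 and 3. Without LAB replicate 1 the median was 0.18 and without LAB replicate 2 it was 0.04. Their differences were small, at most 0.26 for CYC7, with 0.21 for QCR8 and COX5B and 0.08 for ATP2.

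Of 12 drug efflux genes under Pdr1, 3 were higher and 1 lower. SNQ2 was the clearest, and RSB1, a lipid exporter, was at 1730 and 3233 in LAB and at 3284 and 3926 in WY7. PDR5, the main efflux pump, was at 5989 and 7240 against 5773 and 5319, and YOR1 at 19549 and 13351 against 17620 and 17636. The 2 ABC pumps SNQ2 and PDR5 thus had log2 differences of opposite sign, 0.51 and -0.25.

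Lipid and low-oxygen genes varied more between the LAB fermentations than between the strains. The median log2 difference of LAB replicate 2 from LAB replicate 1 was 0.88 over 23 low-oxygen genes, 0.86 over 12 fatty acid genes and 0.44 over 24 sterol genes. OLE1, the fatty acid desaturase, was at 77775 and 203609 in LAB and at 154017 and 216973 in WY7, and DAN1, a cell wall protein of anaerobic cells, at 423 and 3020 against 1264 and 2614. In OLE1 and DAN1 the lowest value of the 4 was LAB replicate 1. FAA4, ERG3 and ERG25 had log2 differences of 0.32, 0.44 and 0.26, all with overlap. No fatty acid or sterol gene was free of overlap, and the low-oxygen genes had 2 higher, CYC7 and COX5B, and 3 lower, with PAU23 at 170 and 166 against 131 and 88. The median of the low-oxygen genes was 0.11 and turned to -0.01 with equal library sums. Without LAB replicate 1 it was -0.48, and without LAB replicate 2 it was 0.33. That of the fatty acid genes was 0.18 with all libraries, -0.20 without LAB replicate 1 and 0.60 without LAB replicate 2.

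Ribosomal protein genes showed the same dependence. The log2 difference was positive for 128 of 132 genes with a median of 0.16, yet 17 (12.9%) were higher without overlap, fewer than the 15.6% of all genes, and none lower. LAB replicate 2 was above LAB replicate 1 by a median of 0.45. Without LAB replicate 1 the median turned to -0.05, and without LAB replicate 2 it was 0.39. RPL10 was at 20023 and 27889 in LAB and at 25228 and 27191 in WY7, and RPL3 at 15881 and 23965 against 20633 and 22837. RPS30B was at 5224 and 4805 against 6180 and 7018, with RPL39 and RPL29 at 0.33 and 0.31.

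**Figure D5:**
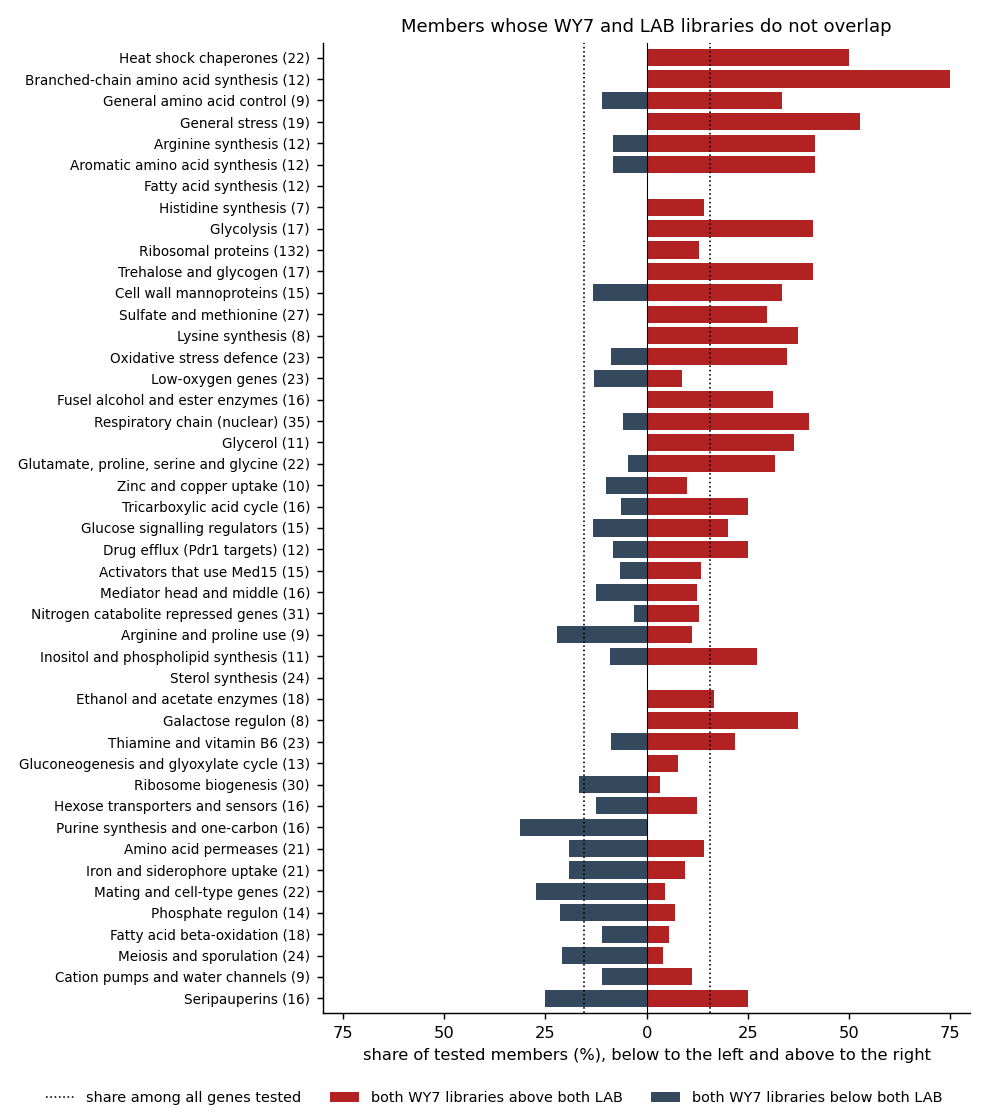
Share of tested members of each list of at least 7 genes whose WY7 libraries are both above (red) or both below (dark) the 2 LAB libraries, with lists ordered by median log2 difference and their tested members in parentheses. Dotted lines mark the shares among all genes, 15.6% above and 15.4% below; branched-chain synthesis reaches 75% here and 16.7% with quantile normalization, and several medians, those of glycolysis, sulfate, respiratory chain and low-oxygen genes among them, change sign with the scaling.

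Against the other wine alleles, WY7 gave more differences at an unadjusted limma p than against LAB, but none that passed the limma test. That contrast draws on the libraries of both WY15 and WY23, more than the LAB libraries alone. Its estimates are therefore more precise, and the counts of the contrasts are not directly comparable. The limma contrast of WY7 with the mean of WY15 and WY23 called 0 of 6065 genes (0%), with a lowest adjusted p of 0.373 and 588 genes (9.69%) at an unadjusted p under 0.05. edgeR called 0 and DESeq2 called 64 genes (1.06%). Both WY7 libraries were above the 6 libraries of LAB, WY15 and WY23 for 256 genes (4.22%) and below them for 308 (5.08%). ATG1, SPS22, CDC20 and LAC1 were among the former and IRR1, SMC5, CRH1, DNA2, SLK19 and RAD27 among the latter. The LAB libraries were below all 6 libraries of the wine alleles for 183 genes (3.02%) and above them for 154 (2.54%). SNQ2, LYS20, PCL5, ICY1, ILV2, ALD5 and SNG1 were in the first of these sets. For SNQ2, WY15 was at 13098 and 12180 and WY23 at 15602 and 15639, and for LYS20 WY15 was at 25078 and 24986 and WY23 at 33328 and 37961. ATG1 was at 6041 and 6307 in WY15, just below both LAB values, and at 8332 and 8164 in WY23, between LAB and WY7.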

How the data were processed

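Polyadenylated RNA of 10 yeast cultures was sequenced. Per the submitters' processing notes, the tools were featureCounts, Bowtie2, Trim Galore and DESeq2 and the builds R64 and sacCer3; their versions and settings, and whether strand was used, were not given in the sources used here. The deposited values are a signal per gene and library, in which reads were divided by the library's DESeq2 size factor. All values were whole multiples of 1 step per library within 1e-06, so reads were recovered. Of 6600 identifiers 5917 matched the R64 annotation, and 119 genes had no read. Genes with a match of at least 97% over 150 bp (BLAST+ 2.17.0) were marked near-identical, 148 of those tested.

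The main fit (limma 3.58.1, R 4.3.3) took log2(value + 1) of the 6065 genes averaging 10 or more, with a mean for each of 5 strains and a trended, not robust, prior variance. It had 5 residual and 3.05 prior degrees of freedom, and its two-sided p-values were adjusted by Benjamini-Hochberg over those genes. edgeR 4.0.16 and DESeq2 1.42.0 were run on recovered reads. The procedures were tested on simulated data. The p-values of the main fit rest on the spread between the 2 fermentations of a strain, pooled over the 5 strains, deletion included, and drawn toward the trend. The strains differed in this spread, with a median absolute log2 difference between replicates of 0.08 in WY23 and 0.20 in WY15.

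The members and gene lists were chosen with earlier results of these data known, and lists carry no test; lists give counts of genes without overlap and medians. Named genes are MED15, up to 12 per direction that have a standard name, average 50 or more and do not overlap, ranked by unadjusted p where none passed, up to 3 members of largest difference and the 2 most abundant of each list described, and 18 fixed metabolic genes; those called by DESeq2 or 2-fold apart were added after their values were seen. Replicate numbers were not used to pair the samples in the main fit.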

Additional observations from a re-analysis of the deposited data

How the results depend on the processing

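WY7 against LAB gave 0 calls at an adjusted p under 0.05 with limma under every alternative that was run, leaving out any 1 library included (0 to 0), and with edgeR. DESeq2 gave 17 calls, 16 higher and 1 lower. Without independent filtering, a setting chosen after seeing the data, it gave 8 calls, 6 higher and 2 lower. Leaving out 1 library moved the genes at an unadjusted p under 0.05 from 71 (without WY7 replicate 2) to 460 (without WY7 replicate 1). With a replicate block there were also 0 calls; same-numbered libraries of LAB and WY7 had a correlation of deviations of -0.22, and with crossed pairing 0 genes were called. Against WY15 and WY23, DESeq2 gave 64 calls with and without independent filtering, and leaving out 1 library gave 0 to 1, the 1 without either LAB replicate. The 13 genes at least 2-fold apart without overlap became 2 with a pseudocount of 10, 3 with a mean of at least 50 and 72 with no filter on low values; a higher pseudocount shrinks ratios of low counts and the filters change which low genes enter. MED15 ranged from -0.0165 (equal library sums) to 0.15.

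Of 154 other named genes, none of which passed the limma test, 69 of 3850 values under an alternative had the opposite sign, and the cause was not tested. With quantile normalization the log2 difference was -0.084 for MED19, -0.049 for GCN4, -0.11 for ADH1, -0.13 for GPD1, -0.061 for GSY2, -0.10 for ATP2, -0.12 for AGP1, -0.057 for LYS1, -0.014 for ILV3, -0.12 for MET6, -0.030 for ADE3, -0.061 for ADE16, -0.060 for YOR1, -0.043 for RPL10, -0.035 for RPL3 and -0.014 for LEU4. With equal library sums it was -0.10 for MED19, -0.038 for PUT3, -0.037 for GPD1, -0.041 for ATP2, -0.040 for MET6 and -0.021 for ADE16, and with edgeR -0.0012 for MED19. Leaving out 1 library gave log2 differences of -0.33 to 0.18 for MED2, -0.25 to 0.30 for MED19, -0.050 to 0.045 for MED14, -0.25 to 0.23 for MSN4, -0.11 to 0.49 for ADH1, -0.11 to 0.28 for GPD1, -0.033 to 0.35 for GSY2, -0.25 to 0.16 for GLN1, -0.047 to 0.33 for AGP1, -0.031 to 0.53 for HIS4, -0.12 to 0.38 for LYS1, -0.15 to 0.50 for HIS5, -0.031 to 0.19 for MET6, -0.0062 to 0.32 for ADE3 and -0.049 to 0.24 for ADE16. It gave -0.16 to 1.23 for OLE1, -0.24 to 1.12 for ERG3, -0.25 to 0.78 for ERG25, -0.056 to 0.70 for FAA4, -0.15 to 0.40 for YOR1, -0.10 to 0.45 for CTT1, -0.091 to 0.39 for RPL10, -0.14 to 0.45 for RPL3, -0.41 to 0.29 for RNR4, -0.57 to 0.13 for RNR2, -0.71 to 0.57 for ADH2, -1.18 to 0.49 for ALD6, -0.11 to 0.092 for GDH1, -0.16 to 0.074 for MET3 and -0.73 to 2.10 for DAN1. Depth limits the genes of few reads, where 3 reads correspond to 2.74 to 3.83 normalized counts in these 4 libraries.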

Other observations

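The lists in this section were put together after the values had been seen, from genes that led the ranking, so their counts describe these libraries and support nothing. Genes of DNA replication, cohesin and condensin lay lower in WY7: of 76 tested, 39 were below LAB in both WY7 libraries and 2 were above, with a median log2 difference of -0.16, or -0.27 with equal library sums and -0.13 with quantile normalization. None passed the limma test. Of the 33 members between 100 and 1000 normalized counts 23 were lower, beside 27.5% of all genes at that level. CDC45, a part of the replicative helicase, was at 329 and 247 in LAB and at 202 and 138 in WY7, and POL30, the sliding clamp, at 420 and 275 against 206 and 235. The abundant ribonucleotide reductase genes RNR2 and RNR4 overlapped, RNR2 at 7037 and 11417 against 9346 and 6339 and RNR4 at 11910 and 19327 against 17506 and 12082. Both WY7 libraries were below the 6 libraries of LAB, WY15 and WY23 for 18 of the 76, where 5.08% of all genes were, a share not matched by level. The list's median difference from LAB was 0.03 for WY15 and -0.09 for WY23, in comparisons that share the LAB libraries.

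Genes known to respond to weak acids through the activator Haa1 lay higher in WY7. Of 9 tested, 7 were above LAB in both WY7 libraries and none below, with a median of 0.40, or 0.28 with equal library sums and 0.15 with quantile normalization. Of the 8 members above 10000 normalized counts 7 were higher, beside 39.8% of all genes at that level. HRK1, a kinase that acts on the plasma membrane proton pump, was at 12676 and 14673 in LAB and at 16744 and 22472 in WY7, and YRO2, a membrane protein, at 103019 and 98814 against 121846 and 145997. YGP1, TPO2 and TPO3, described with the ranked and stress genes, belong to this list. The median difference from LAB was -0.09 for WY15 and 0.36 for WY23.

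Over all 51 lists the median log2 difference lay between -0.17 and 0.40.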
